A study of Mus musculus with 28 samples.

Results

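The distal ends of the mouse autosomes were taken as the last 5 Mb of chromosomes 1 to 19, tiled into windows of 200 kb that were counted back from the last segment of each chromosome in the WT-NT segmentation. This gave 475 windows, 25 per chromosome and 95 Mb in all, of 12065 autosomal windows. The other 11590 windows, 2318 Mb that leave out the unassembled initial 3 Mb of each chromosome, are called the rest of the autosomes. The choice of windows used position only and no measured value.

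The study concerned SIRT7, a nuclear NAD-dependent deacylase, and macroH2A1.1 in the response to glucose starvation, and measured chromatin by ChIP-seq in primary mouse embryonic fibroblasts of strain 129s2, prepared from embryos of 14.5 days and used at passages 3 to 4. The 4 groups were wild-type cells labelled NT (WT-NT), wild-type cells labelled GS (WT-GS), SirT7-/- cells labelled NT (KO-NT) and SirT7-/- cells labelled GS (KO-GS). Wherever 4 values follow one another below, they stand in this order of groups. The labels do not expand NT or GS, and no further allele or agent is named for any group. H3K27me3 and macroH2A1.1 (mH2A1) were each measured in 2 libraries per group, and the deposited files hold 1 chromatin segmentation per group that joins these libraries. The SIRT7 libraries analysed here all come from WT cells, 2 per treatment, with 1 peak list per treatment. Each file stands for pooled replicates, so the values below carry no replicate error, no difference was tested, and the sources used here give no read depth. An SD over chromosomes describes spread along the genome and not between cultures.

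Mouse autosomes carry their centromere at one tip, so the distal end is the tip far from the centromere and next to the long-arm telomere. H3K27me3 is the histone mark written by Polycomb repressive complex 2 and is known for broad domains over silent developmental genes. MacroH2A1.1 is a splice form of a histone H2A variant with a large additional macro domain that binds NAD-derived ADP-ribose metabolites, and macroH2A proteins in fibroblasts are found over wide stretches of chromatin that often carry H3K27me3. The segmentations assign each 200 bp bin to 1 of 4 states, U1 to U4. The sources used here do not say what each state means, nor whether a state was defined alike in all 4 files. U1 also covers unassembled sequence that can hold no reads, and U2, U3 and U4 together are called marked sequence.

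Sequence near the distal ends was richer in U3 than the rest of the autosomes in all 4 segmentations. U3 covered 11.6% of the distal windows against 7.73% of the rest in WT-NT, a ratio of 1.505. With GS the WT shares were 13.0% and 8.43%, a ratio of 1.54. KO-NT had 12.1% and 8.35%, a ratio of 1.45, and for KO-GS the shares were 12.3% and 8.28%, a ratio of 1.48. The excess was not present on every chromosome. Distal U3 was above the same chromosome's rest on 11, 12, 11 and 11 of 19 autosomes.

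U4, the rarest state, was likewise more frequent in the last 5 Mb than in the rest. It covered 3.05%, 2.46%, 1.28% and 2.79% of the distal windows. Its shares of the rest were 2.13%, 1.72%, 1.02% and 1.86%, so KO-NT had the least U4 on both sides. The distal share of U4 was the higher one on 11, 11, 12 and 12 of 19 chromosomes. This direction held for the last 5 Mb but not for the last 2 Mb alone, where U4 was below the rest in all 4 segmentations, with differences of -0.15, -0.17, -0.24 and -0.083 points. The excess was not particular to the ends either, since U4 covered 3.47%, 2.77%, 1.44% and 3.09% from 5 to 10 Mb, above the last 5 Mb in all 4 segmentations.

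U2, the most frequent of the marked states, showed no such excess. It covered 20.9%, 20.3%, 16.3% and 18.2% of the distal windows and 21.3%, 21.5%, 17.6% and 18.02% of the rest. Only 8 or 9 of 19 chromosomes had more U2 in their last 5 Mb than elsewhere. Except in KO-NT, the sign of the pooled difference turned when single chromosomes were left out, and without chromosomes 17 and 18 distal U2 was above the rest by 1.94 points in WT-NT, 1.12 points in WT-GS and 0.50 points in KO-NT.

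All marked states together covered 35.5%, 35.8%, 29.7% and 33.3% of the distal windows. The rest of the autosomes were marked over 31.2%, 31.6%, 27.02% and 28.2%. The same 12 chromosomes had the higher share at their distal end in every segmentation, and the same 7 had the lower share in every segmentation.

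An excess of U3 was not particular to the outermost 5 Mb. Windows from 5 to 10 Mb from the end held U3 over 11.01%, 12.4%, 11.9% and 11.9%, close to the distal values. Marked sequence covered 38.7%, 38.0%, 31.2% and 35.7% of those windows, above the last 5 Mb in all 4. At the other tip, in the 5 Mb next to the unassembled 3 Mb, U3 covered 5.24%, 5.76%, 5.57% and 5.63%. Marked sequence there covered 26.1%, 26.6%, 22.4% and 22.8%, below the distal end in each segmentation. The windows just inside the 5 Mb border were marked over 39.0% on average (SD 38.4 over 19 chromosomes) in WT-NT and those just outside it over 36.1% (SD 35.8).

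**Figure D1:**
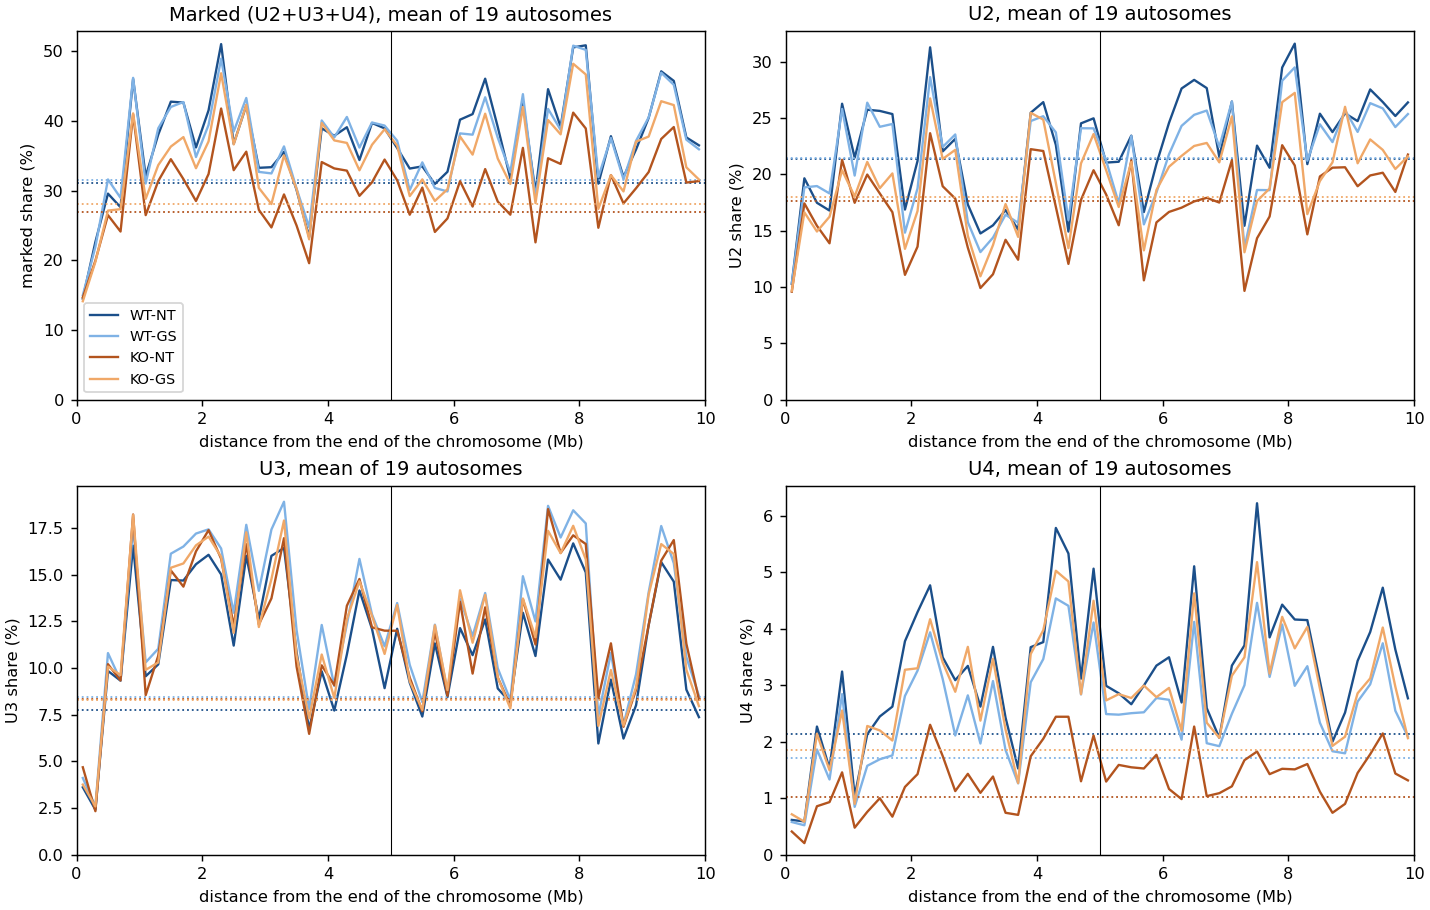
Mean share (%) of marked sequence and of states U2, U3 and U4 in 200 kb windows against distance from the distal end (Mb), averaged over 19 autosomes, with 1 line per segmentation; dotted lines give the rest of the autosomes and the vertical line the 5 Mb border. All 4 lines drop towards the outermost windows, and no step is seen at the border.

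The outermost 400 kb stood apart from the remaining 4.6 Mb of the distal ends. Marked sequence covered 18.6%, 18.5%, 17.3% and 16.97% of the last 400 kb. The next 4.6 Mb were marked over 37.0%, 37.3%, 30.8% and 34.7%. The outermost stretch had the lower share on 16, 17, 15 and 16 of 19 chromosomes. For U3 the shares were 3.01%, 3.35%, 3.51% and 3.17% in the last 400 kb against 12.4%, 13.8%, 12.9% and 13.1% further in, lower on 19, 19, 18 and 19 of 19 chromosomes. These distances were chosen after the profile had been seen.

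Several chromosomes ended in a run of U1 with no marked bin. This terminal run exceeded 50 kb in all 4 segmentations on 9 of 19 chromosomes. On chromosome 17 it measured 861.6 kb, 861.2 kb, 858.2 kb and 861.8 kb. Chromosome 18 ended in 832.2 kb of U1, except in KO-NT, where the run was 24.0 kb. On chromosome 8 the run was 281.0 kb in every segmentation. Chromosomes 4, 5 and 7 had no such run, since their last 200 bp bin was marked in all 4. How much of these runs is unsequenced or unmappable was not tested, because no genome of the files' build was used here.

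The distal ends differed widely between chromosomes. The marked share of the last 5 Mb had an SD of 17.4, 16.4, 14.4 and 17.2 points over the 19 chromosomes. The 454 other autosomal blocks of 5 Mb had an SD of 16.03, 15.8, 14.3 and 15.4 points, so the spread of marked sequence at the ends was close to that of any stretch of this length. From 5 to 10 Mb the SD was 12.9, 12.5, 11.5 and 11.95 points, and from 3 to 8 Mb at the proximal tip it was 14.7, 14.6, 13.5 and 13.2 points. For U3 the distal SD was 9.04, 10.1, 9.62 and 9.51 points, against 6.60, 7.32, 7.19 and 7.03 points over the other blocks.

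Chromosome 19 had the most marked distal end in WT-NT, and was marked over 57.5%, 53.8%, 47.4% and 49.9%. Its rest was marked over 32.9%, 33.2%, 28.1% and 29.99%. Chromosome 8 followed with 56.6%, 55.7%, 51.6% and 55.1%, and was the highest of all in the other 3 segmentations. Chromosome 7 reached 53.3%, 55.1%, 44.5% and 54.6%, while its rest was marked over 25.7%, 25.7%, 21.6% and 24.0%. Chromosome 15 reached 53.0%, 52.7%, 47.0% and 53.2%.

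At the other extreme, chromosomes 17 and 18 were almost free of marked sequence at their distal ends. On chromosome 18 it covered 1.21%, 1.12%, 1.60% and 0.76%, although the rest of the chromosome was marked over 35.5%, 35.6%, 29.96% and 31.4%. Chromosome 17 had 2.56%, 3.66%, 1.51% and 1.53%, against 30.4%, 30.7%, 25.2% and 28.0% elsewhere. From 5 to 10 Mb the marked share was 35.2% on chromosome 17 and 27.2% on chromosome 18 in WT-NT. The next lowest ends in WT-NT were those of chromosome 3 at 15.2% and chromosome 12 at 19.2%.

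**Figure D2:**
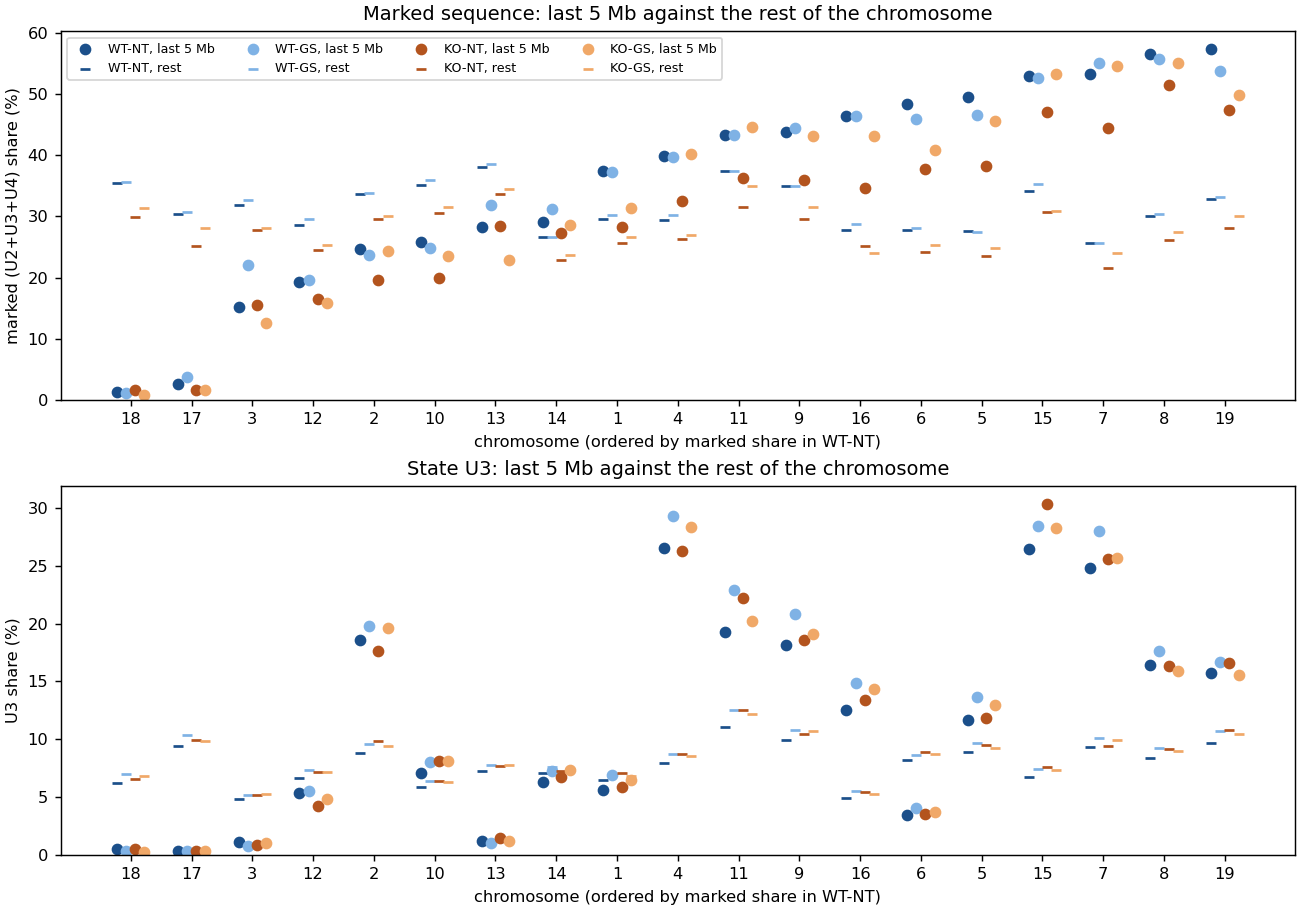
Share (%) of marked sequence (top) and U3 (bottom) in the last 5 Mb (points) and the rest (dashes) of each autosome, by segmentation, with chromosomes ordered by their marked share in WT-NT. The distal points run from 1.21% on chromosome 18 to 57.5% on chromosome 19 in WT-NT, while the dashes, which average a far longer stretch, stay in a narrow band.

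The order of chromosomes differed between states. In WT-NT U3 was highest at the end of chromosome 4, with 26.6%, 29.3%, 26.3% and 28.3%, beside a rest of 7.94%, 8.74%, 8.73% and 8.57%. Chromosome 15 had 26.4%, 28.5%, 30.4% and 28.3%, and chromosome 7 had 24.8%, 28.0%, 25.6% and 25.6%. Chromosome 2 was marked over only 24.7% of its end in WT-NT, yet 18.6% of that end was U3 and 4.504% was U2. Chromosome 6 showed the opposite make-up, with 43.4% U2 and 3.46% U3 in WT-NT. Chromosome 13 had 26.7% U2 and 1.18% U3. The mean over chromosomes therefore joins ends rich in U3, ends rich in U2 and ends with neither.

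In single windows the same pattern appeared as a surplus of U3 windows. A U3 share over 20% was reached by 92 of 475 distal windows (19.4%) in WT-NT, where 13.8% of all autosomal windows did so. The counts were 106 (22.3%, against 15.5% of all) in WT-GS, 100 (21.1%, against 15.1%) in KO-NT and 99 (20.8%, against 15.1%) in KO-GS. Across all 4 segmentations at once it was reached by 81 distal windows (17.1%) on 12 chromosomes, against 12.1% of all windows. Of the 92 windows in WT-NT, chromosome 4 supplied 13 and chromosome 7 supplied 14, and chromosomes 1, 3, 6, 13, 17 and 18 supplied none.

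Windows marked over more than 50% of their length numbered 150 (31.6%) in WT-NT, where the background among all autosomal windows was 27.9%. There were 148 (31.2%, background 28.2%) in WT-GS, 110 (23.2%, background 22.2%) in KO-NT and 135 (28.4%, background 24.6%) in KO-GS. Those shares lie near the background. Windows with less than 5% marked numbered 123, 117, 133 and 132. They made up 25.9%, 24.6%, 28.0% and 27.8% of the distal windows, below the 31.2%, 29.7%, 33.7% and 34.0% among all windows. Of the 108 distal windows under 5% in all 4 segmentations, 24 lay on chromosome 18 and 18 on chromosome 17. They made up 22.7% of the distal windows, against 27.5% of all.

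Measured in blocks of 5 Mb, the scale of the distal ends themselves, U3 exceeded 15% in 8 of the 19 terminal blocks in each of the 4 segmentations. Among all 473 blocks this share was exceeded by 16.3%, 19.9%, 19% and 19.2%. Marked sequence exceeded 50% in 4, 4, 1 and 3 terminal blocks, against 13.3%, 14%, 5.29% and 8.25% of all blocks. The thresholds of 15% and of 20% for U3 and of 5% for marked sequence were chosen after values had been seen.

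**Figure D3:**
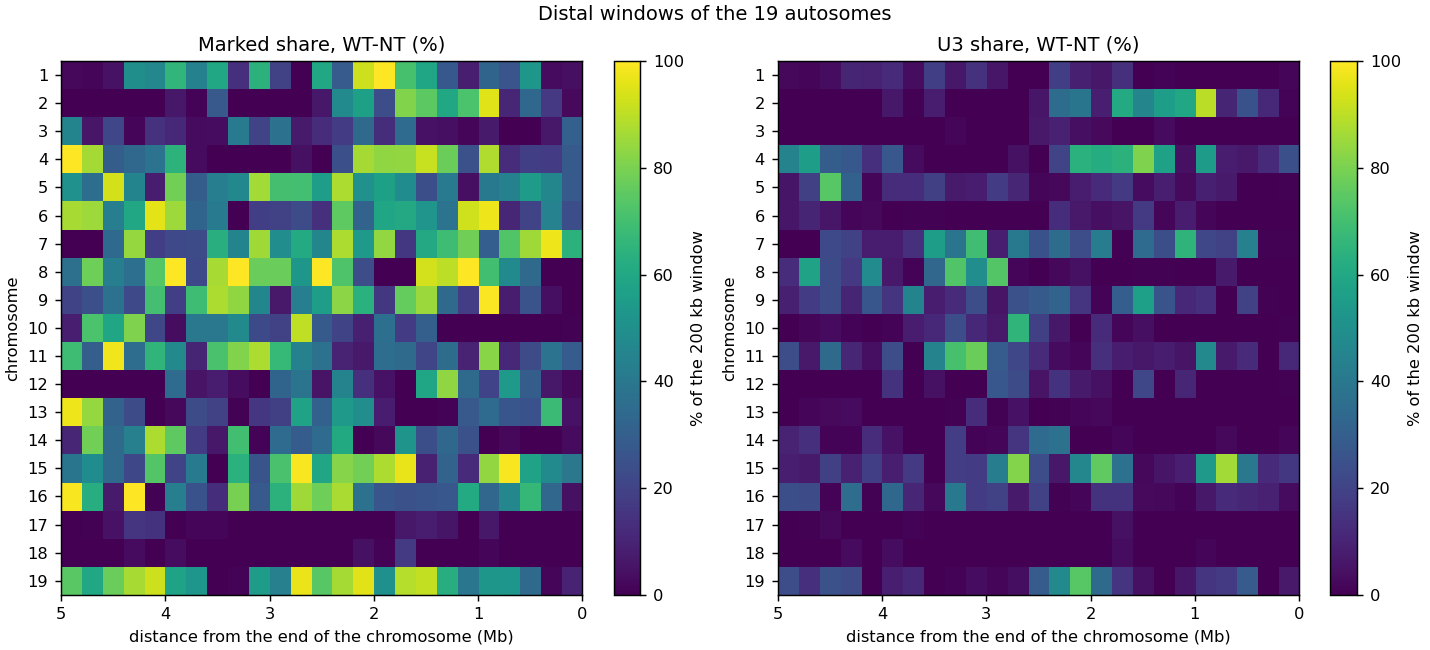
Share (%) of marked sequence (left) and of U3 (right) in each of the 475 distal windows in WT-NT, with 1 row per autosome and distance from the end (Mb) on the horizontal axis. The rows of chromosomes 17 and 18 are dark throughout, and windows with high U3 gather on chromosomes 2, 4, 7, 8, 9, 11, 15 and 19.

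The windows named next are extremes, picked by their shares in WT-NT. Over all distal windows the WT-NT medians were 12.4% for U2, 3.5% for U3 and 0.9% for U4. All coordinates are mm9, counted from 1. U2 was highest in chr8:130538801-130738800, where it covered 99.7%, 99.5%, 99.8% and 99.6%. This window lies inside the longest marked domain of the distal ends, which measured 448.4 kb, 448.8 kb, 449.0 kb and 448.4 kb. In WT-NT that domain spanned chr8:130429801-130878200. A further window of chromosome 8, chr8:129138801-129338800, was U2 over 99.5%, 99.5%, 99.8% and 99.7%. On chromosome 5 a domain of 313.4 kb, chr5:149365201-149678600, kept the same borders except in WT-GS, where it ended 200 bp further out. Not every long domain was listed among the longest in all 4 segmentations. The domain next in length after the longest in both WT segmentations began at chr15:102554201, with 322.6 kb in WT-NT and 322.4 kb in WT-GS. No domain at that place was among the longest listed for KO-NT, down to 209.6 kb, or for KO-GS, down to 277.2 kb. The window that holds the start of this domain, chr15:102494801-102694800, was marked over 83.8%, 84.2%, 80.8% and 82.1%. Absence from the listed domains thus does not mean that marked sequence was lost there.

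U3 was highest in chr2:180748001-180948000, within the last 1 Mb of chromosome 2, with 89.7%, 91.3%, 86.7% and 87.6%. Almost no U2 was found in that window, 0.50% in WT-NT, 0.80% in WT-GS and none in either KO segmentation. U4 was highest in chr16:93919001-94119000, at 38.8%, 27.3%, 17.9% and 27.3%. U3 in that window moved the other way, 35.6%, 48.6%, 61.0% and 52.7%, so that 99.5% to 100% of it stayed marked in all 4. Another window of this mixed kind was chr4:150630001-150830000, the innermost one on chromosome 4, with U4 at 21.1%, 15.5%, 4.90% and 17.4% and U3 at 44.6%, 54.1%, 60.0% and 48.7%. Also fully marked in WT-NT were chr1:195195401-195395400, with U2 at 91.8%, 81.2%, 79.0% and 79.9%, and chr8:127738801-127938800, with U2 at 79.0%, 73.9%, 79.7% and 75.3%.

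Segments of the 3 marked states differed in length. In WT-NT the median distal segment was 2400 bp for U2, 1200 bp for U3 and 200 bp for U4, so that 54.5% of U4 segments were a single bin. Segments of U3 were more frequent than in the rest, 54.4 per Mb against 40.2 per Mb in WT-NT, at the same median length in the rest, 1200 bp. U4 segments numbered 70.3 per Mb against 55.3 per Mb. In KO-NT U3 segments were fewer and longer, 35.3 per Mb with a median of 2000 bp, and U4 segments numbered 34.9 per Mb. In the rest KO-NT likewise had fewer and longer U3 segments, 28.0 per Mb with a median of 1800 bp. Its U4 segments there numbered 30.1 per Mb. Marked domains of 50 kb or more numbered 186, 187, 143 and 165 at the distal ends. This came to 1.96, 1.97, 1.51 and 1.74 per Mb, against 1.65, 1.66, 1.31 and 1.45 per Mb in the rest.

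Genes were not placed in these windows, because the annotation used here, RefSeq on GRCm38.p6, is of another build than the files. Its order of protein-coding genes from each tip gives only the neighbourhood. Chromosome 8 ends in Ccdc7b, Ccdc7a, Itgb1 (an integrin beta chain), Nrp1 (a receptor for semaphorins and VEGF) and Pard3 (a cell polarity protein). Chromosome 7 ends in a group with Ccnd1, which encodes cyclin D1, and the fibroblast growth factor genes Fgf15, Fgf4 and Fgf3. Chromosome 18 ends in Tmx3, Dok6, Cd226 and Rttn, followed by Socs6, Cbln2 and Neto1, of which Cbln2 and Neto1 act at synapses. On chromosome 15 the Hoxc genes, homeobox genes of body patterning and classic Polycomb targets, hold places 16 to 24 from the tip.

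The first comparison between conditions asks how NT and GS cells differ, and in WT cells the marked total at the distal ends was nearly the same. It covered 35.5% in WT-NT and 35.8% in WT-GS, a difference of 0.21 points, with 8 chromosomes higher and 11 lower. Within it, U3 was 1.32 points higher in GS, with 15 of 19 chromosomes higher, beside 0.70 points in the rest. U4 differed by -0.58 points (16 of 19 chromosomes lower), beside -0.42 in the rest. U2 differed by -0.52 points (13 of 19 lower), beside 0.14 in the rest. In WT-NT the rest also had the lower shares of U3 and U4, 7.73% and 2.13%. These differences were not particular to the last 5 Mb. From 5 to 10 Mb they were 1.43 points in U3 (16 of 19 higher), -0.71 in U4 (19 of 19 lower) and -1.39 in U2 (15 of 19 lower). Of the distal bases that were U4 in WT-NT, 36.2% were U3 in WT-GS, beside 34.5% in the rest. A difference of at least 10 points in any state was found in 42 distal windows (8.84%), where 10.5% of all autosomal windows differed by as much.

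The rule for naming windows takes the largest positive and the largest negative difference, so both signs appear here by choice. In chr3:155599601-155799600 U2 covered 11.6% in WT-NT and 44.6% in WT-GS, while both KO segmentations lay between, at 25.4% and 28.7%. In chr19:57142401-57342400 U2 covered 91.2% in WT-NT and 56.6% in WT-GS, with 53.6% and 69.4% in KO. The marked share of the end of chromosome 3, 15.2% in WT-NT and 22.1% in WT-GS, was the largest positive WT difference on any chromosome, and its KO values were 15.5% and 12.5%. The largest negative WT difference in U3 was in chr19:60542401-60742400, at 16.8%, 10.5%, 12.6% and 10.4%. Without chromosome 3 the sign of the WT difference in U1 turned, from -0.21 to 0.16 points.

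In KO cells the marked total was 29.7% in NT and 33.3% in GS, a difference of 3.54 points at the distal ends beside 1.14 points in the rest. It was positive on 15 of 19 chromosomes, and on 14 of 19 it was above that of the same chromosome's rest. U2 was 1.88 points higher in KO-GS (14 of 19 chromosomes), U4 was 1.51 points higher (18 of 19), and U3 was 0.15 points higher (13 of 19). In the rest these differences were 0.38, 0.84 and -0.071 points. From 5 to 10 Mb the marked share was 4.52 points higher in KO-GS, on 19 of 19 chromosomes, so the difference was not limited to the last 5 Mb. Windows whose marked share was higher in KO-GS by at least 10 points numbered 73 (15.4%), against 10.9% of all autosomal windows. Any state differed by that much in 109 windows (22.9%), against 19.7% of all.

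Chromosome 7 had the largest KO difference in its marked share, 44.5% with NT and 54.6% with GS. Chromosome 13 had the lowest, 28.5% and 22.8%. In chr16:95519001-95719000 the KO share of U2 was 35.9% with NT and 73.0% with GS, with 74.8% and 76.6% in WT. In chr11:118443801-118643800 the KO share of U3 was 43.6% with NT and 76.8% with GS, with 70.9% and 80.1% in WT. In both windows KO-NT was the low value and the other 3 segmentations lay together. U4 in chr11:118843801-119043800 was 12.2% in KO-NT and 31.1% in KO-GS, with 25.9% and 22.9% in WT. The reverse order was seen in chr13:117284201-117484200, where the KO share of U2 was 39.6% with NT and 14.8% with GS, with 18.2% and 32.1% in WT. The largest negative KO difference in U3 was in chr11:117243801-117443800, at 34.7%, 43.7%, 57.1% and 39.6%, where U4 was 36.7%, 33.2%, 16.7% and 34.7%. That in U4 was smaller, in chr14:122794801-122994800, at 13.3%, 7.90%, 9.30% and 6.90%.

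The comparison of genotypes in NT cells shares the KO-NT segmentation with the comparison above, so the low KO-NT values enter both. Marked sequence at the distal ends was 35.5% in WT-NT and 29.7% in KO-NT, a difference of -5.83 points, with 16 of 19 chromosomes lower. The rest differed by -4.16 points. U2 accounted for most of it, with -4.55 points (16 of 19 lower) beside -3.67 in the rest. U4 differed by -1.77 points, lower on 19 of 19 chromosomes, beside -1.11 in the rest. U3 was 0.49 points higher in KO-NT, beside 0.62 in the rest. From 5 to 10 Mb marked sequence covered 38.7% in WT-NT and 31.2% in KO-NT, and U2 covered 24.2% and 17.9%. The lower KO-NT shares of marked sequence and U2 were thus not particular to the last 5 Mb. Of the distal bases that were U2 in WT-NT, 25.6% (5.06 Mb) were U1 in KO-NT, beside 22.9% in the rest. Of those that were U4, 52.9% were U3, beside 49.2% in the rest. Windows whose marked share was lower in KO-NT by at least 10 points numbered 115 (24.2%), against 17.8% of all. Any state differed by that much in 143 windows (30.1%), against 23.7% of all.

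Chromosome 16 showed the largest such difference, 46.4% marked in WT-NT and 34.6% in KO-NT. The window with the largest difference in U2 was chr1:194995401-195195400, with 78.8%, 71.5%, 29.3% and 54.1%. In the U4-rich window of chromosome 16 described above, KO-NT had the least U4 and the most U3 of the 4 segmentations. The largest positive difference in U4 was small, in chr12:120057401-120257400, at 3.00%, 1.90%, 4.10% and 2.20%. On chromosome 18, whose end was almost unmarked, the genotypes differed by 0.39 points.

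In GS cells the genotype differences in marked sequence and U2 were smaller at the distal ends than in the rest, and those in U3 and U4 were larger. Marked sequence covered 35.8% in WT-GS and 33.3% in KO-GS, a difference of -2.50 points (15 of 19 chromosomes lower), beside -3.44 in the rest. U2 differed by -2.15 points (13 of 19 lower) beside -3.44. U3 differed by -0.68 points (14 of 19 lower) beside -0.15, and U4 by 0.32 points (18 of 19 higher) beside 0.14. From 5 to 10 Mb marked sequence covered 38.0% in WT-GS and 35.7% in KO-GS. A difference of at least 10 points in any state was seen in 63 distal windows (13.3%), against 16.1% of all. In chr13:116484201-116684200 U2 covered 48.7% in WT-GS and 20.1% in KO-GS, beside NT values of 22.3% and 36.1%. In chr11:118643801-118843800 U3 covered 85.6% in WT-GS and 73.1% in KO-GS. The window with the largest positive U3 difference was chr15:102494801-102694800, with U3 at 53.8%, 50.4%, 61.9% and 57.4% and U4 at 13.8%, 16.8%, 8.40% and 13.1%.

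**Figure D4:**
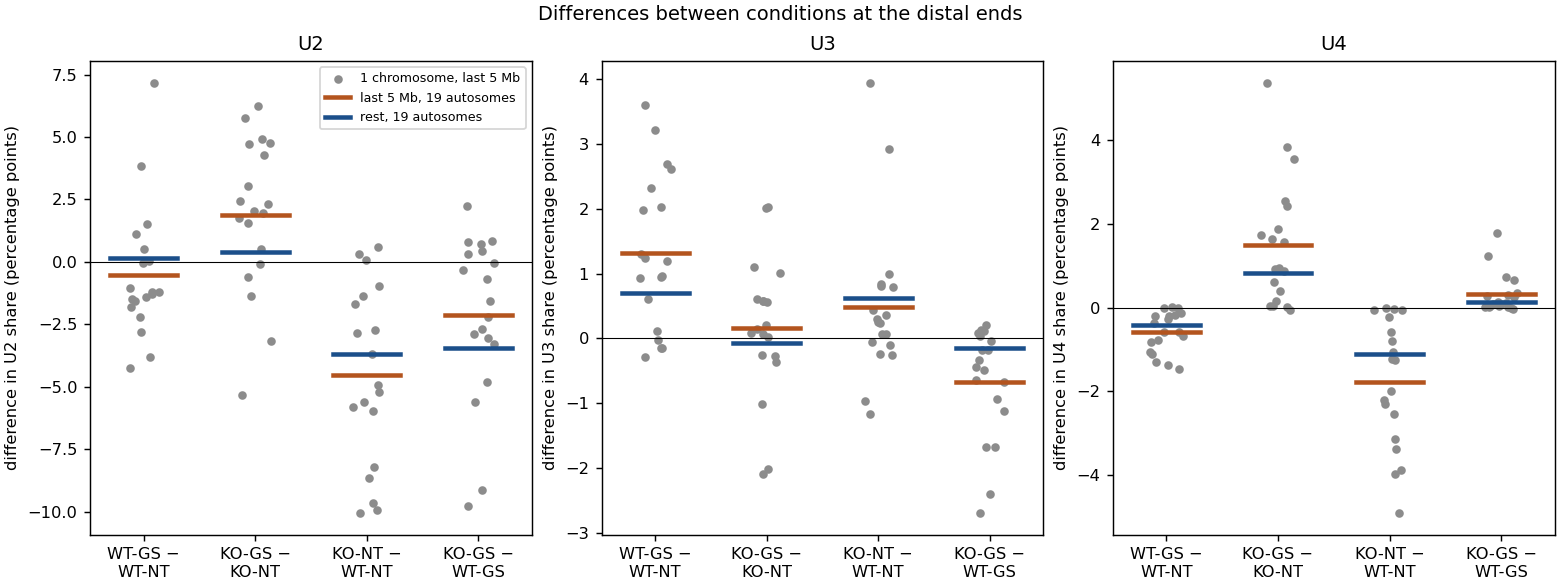
Differences in the share of U2, U3 and U4 (percentage points) for 4 comparisons of conditions; each grey point is the last 5 Mb of 1 autosome, the orange bar all distal windows and the blue bar the rest of the autosomes. U4 lies below 0 on 19 of 19 chromosomes for KO-NT minus WT-NT and above 0 on 18 of 19 for KO-GS minus KO-NT, 2 comparisons that share KO-NT.

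Most distal sequence had 1 state throughout. The same state was given in all 4 segmentations to 80.6% of distal bases and 81.4% of the rest. U3 in all 4 covered 7.89% of the distal ends and 4.88% of the rest, so the surplus of U3 was also present among the bases on which the conditions did not differ. Bins that changed state made up 10.0% of distal bases between the WT segmentations (9.83% in the rest), 11.7% between the KO segmentations (11.04%), 12.4% between genotypes in NT (11.3%) and 9.99% between genotypes in GS (10.1%).

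SIRT7 peaks of the GS list were less dense at the distal ends than in the rest of the autosomes, 0.600 per Mb (57 peaks, exact Poisson 95% interval 0.454 to 0.777) against 0.954 per Mb (2211 peaks, 0.914 to 0.994), a ratio of 0.63. Such intervals cover counting error only, and peaks cluster. The distal density was the lower one on 14 of 19 chromosomes. Chromosomes 5, 7 and 19, which were among those with the most marked distal ends in WT-NT, had no GS peak there. Chromosomes 8 and 15, also highly marked, had 4 each, or 0.80 per Mb, against 0.728 and 0.881 per Mb in their rest. Chromosome 18, the least marked, had 4 as well, against 0.993 per Mb in its rest. Chromosome 17, almost unmarked, had 9, or 1.80 per Mb against 1.04 per Mb in its rest, all of them in U1 in all 4 segmentations. No SIRT7 ChIP from KO cells was analysed here, so the dependence of any listed peak on SIRT7 was not tested.

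The low density was not particular to the last 5 Mb. From 5 to 10 Mb it was 0.579 per Mb (55 peaks, 0.436 to 0.754), and up to 40 Mb from the end, in steps of 5 Mb, it ran from 0.526 to 0.842 per Mb. The proximal tips, from 3 to 8 Mb of each chromosome, held 1.64 per Mb (156 peaks, 1.39 to 1.92). Inside the last 5 Mb the outermost 1 Mb held 22 GS peaks on 13 chromosomes, 1.16 per Mb (0.726 to 1.75), and the next 4 Mb held 35, or 0.461 per Mb. The outermost 1 Mb was thus not below the rest of the autosomes.

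**Figure D5:**
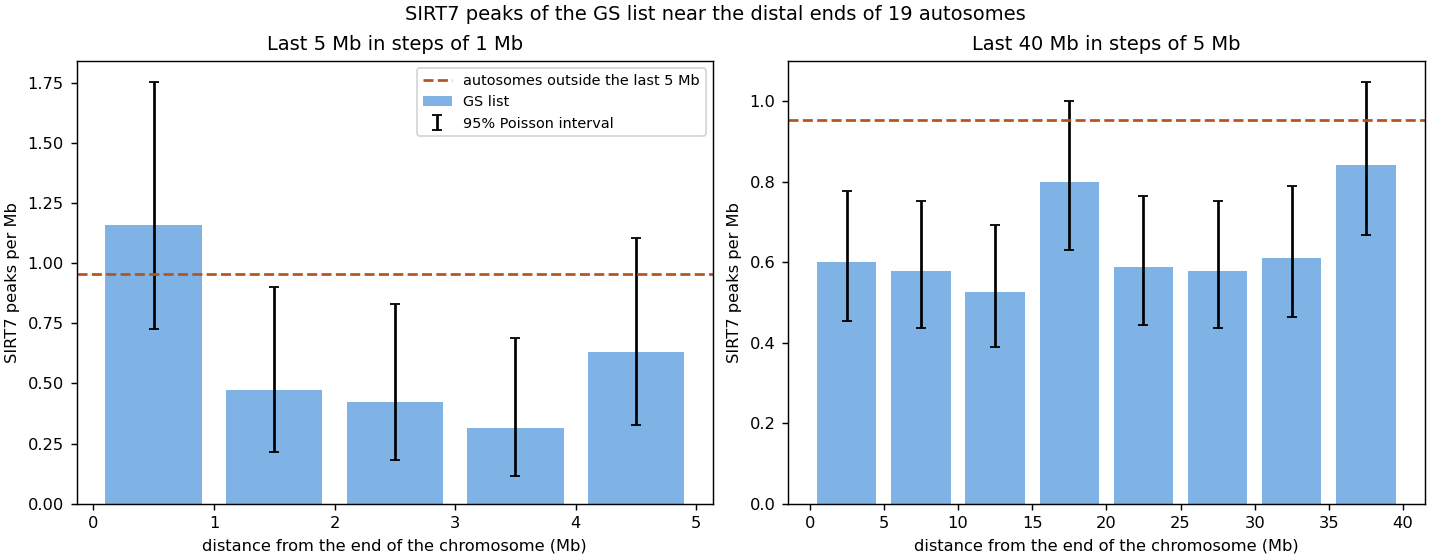
SIRT7 peaks per Mb of the GS list against distance from the distal end (Mb), in steps of 1 Mb (left) and 5 Mb (right), with exact Poisson 95% intervals and the autosomes outside the last 5 Mb as a dashed line. The first 1 Mb, at 1.16 per Mb, lies above the dashed line at 0.954 and the 5 Mb steps lie below it.

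Distal GS peaks lay mostly in U1 of the WT-GS segmentation, 50 of 57 peaks (87.7%, Wilson 95% interval 76.8 to 93.9), beside 85.3% in the rest. Of the other 7, 3 were in U2, 4 in U3 and none in U4. The density was highest in windows with little marked sequence. It was 1.24 per Mb (29 peaks) in distal windows under 5% marked, 0.405 per Mb (17 peaks) between 5 and 50%, and 0.372 per Mb (11 peaks) over 50%. The exact Poisson 95% intervals of these distal values were 0.830 to 1.78, 0.236 to 0.648 and 0.186 to 0.665. In the rest the same classes held 1.46, 0.813 and 0.628 per Mb. Each lay above the distal value, but only the value for the class between 5 and 50% lay outside the distal interval. Per Mb of U1 sequence the density was 0.819 at the distal ends (0.608 to 1.08) and 1.19 in the rest (1.14 to 1.25).

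The highest scored GS peaks of the distal ends, by the authors' score, all lay within the last 1 Mb and in U1 of all 4 segmentations. They were chr3:159030068-159031608 with a score of 953, chr1:196970231-196972905 with 943 and chr16:98286032-98288012 with 915. The last of these lay 32.0 kb from the end of chromosome 16. Within the terminal U1 runs of WT-GS there were 5 GS peaks, on chromosomes 8, 11 and 18. GS peaks fell singly into 38 windows, in pairs into 8, and as 3 peaks into chr12:117057401-117257400, a window with no marked bin in any segmentation. Thus 47 of 475 distal windows held a GS peak, against 1847 of all 12065 autosomal windows. Windows with more than 1 peak were not counted over all autosomes.

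The NT list had 5 distal peaks on 4 chromosomes, 0.053 per Mb (0.017 to 0.123), against 53 in the rest, 0.023 per Mb (0.017 to 0.030). From 5 to 10 Mb the NT list held 7 peaks, 0.074 per Mb (0.030 to 0.152), so a higher density was not particular to the last 5 Mb. The ratio of distal ends to rest, 2.30, rests on few peaks, and the intervals of these parts overlap. Without chromosome 10, which held 2 of the 5, it was 1.38, and among the peaks with the higher 50% of scores it was 0.87. Both peaks that overlapped the GS list, chr10:129314710-129315896 and chr12:120797598-120799072, lay within the last 1 Mb of their chromosome and in U1 of all 4 segmentations. Also in U1 of all 4 were chr10:126181185-126182916 and chr2:178875948-178876916. The remaining NT peak, chr19:56396778-56397626, had the highest score of the 5, 678, and lay in U2 in all 4 segmentations.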

How the data were processed

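Each of the 4 chromatin segmentations deposited by the authors gives, for every 200 bp bin, a state name from U1 to U4, and carries no signal value. Per the labels, each joins both replicates of H3K27me3 and of mH2A1 for a genotype and treatment. Its tool and model are unknown, not given in the sources used here. For SIRT7, each peak list deposited by the authors, 1 per treatment, gives a position and a score per peak. Its formula was not given in the sources used here; it served only to rank peaks within a list. The tools in the submitters' processing notes are MACS 1.4.2, Bowtie, deepTools 2.4.2, SAMtools 0.1.19, Trimmomatic 0.36 and FastQC 0.11.3, and mm9 and hg19 are listed as builds. Chromosome ends in the segmentations match mm9. Nuclear extracts were used for SIRT7 and whole cell extracts for H3K27me3 and mH2A1, per the labels' protocols. The series has 28 libraries, 20 ChIP and 8 input. Read depth is unknown.

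From these files, state shares were computed as percent of bases in windows of 200 kb, pooled over chromosomes (Python 3.11.15, numpy 2.4.6, pandas 2.3.3, scipy 1.17.1). A peak belonged to the window of its midpoint and to the state covering most of its bases. Peak densities carry exact Poisson 95% intervals and shares of peaks Wilson 95% intervals. A window was called marked over 50%, and called different at 10 points or more. No test was made, because each condition has 1 pooled file. Windows were named by a fixed rule: the highest U2, U3 and U4 share and the 5 highest marked shares in WT-NT, the largest gain and loss of each state per comparison, windows with an NT peak or at least 3 GS peaks, and the 3 highest scored GS peaks. The counting was checked on simulated segmentations. The windows, lists and rules were chosen with earlier results of these data known. Alternatives covered the length of the distal end, the definition of the rest, bin merging, short segments, peak overlap, score, and leaving out chromosomes. No sequence of a window is printed, since no genome of the files' build was used here.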

Additional observations from a re-analysis of the deposited data

Results flagged for a closer look

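Differences between GS and NT at the distal ends had opposite signs in the genotypes for both U2 and U4. U2 differed by -0.525 points in WT (13 of 19 chromosomes lower) and by 1.88 points in KO (14 of 19 higher). U4 differed by -0.585 points in WT (16 of 19 lower) and by 1.51 points in KO (18 of 19 higher). With 1 pooled segmentation per condition the difference between genotypes was not tested. The rest of the autosomes showed the same opposite signs for U4, -0.42 points in WT and 0.84 in KO, while U2 in the rest was higher by 0.14 points in WT and 0.38 in KO. The opposite signs were not particular to the last 5 Mb. From 5 to 10 Mb U2 differed by -1.39 points in WT (15 of 19 lower) and 2.83 in KO (19 of 19 higher). U4 differed there by -0.71 points in WT and 1.65 in KO.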

How the results depend on the processing

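No paired analysis was possible because the deposited files pool both replicates of each condition, and for the same reason no replicate could be left out. Of 432 recomputed differences between the distal ends and the rest, 405 kept their sign and the 27 others were of U2 or U4. Of 432 recomputed condition differences, 430 kept theirs. Distal minus rest for U2 turned with the last 2 Mb in KO-GS (-1.13 points), with the last 10 Mb in WT-NT (1.33) and WT-GS (0.17), with the initial 3 Mb counted in the rest in WT-NT (0.071), and with unweighted chromosome means in KO-GS (-0.00076). Without chromosomes 17 and 18, an alternative chosen after seeing the data, it was 1.94 points in WT-NT, 1.12 points in WT-GS and 0.50 points in KO-NT. Leaving out 1 chromosome at a time, U2 ranged from -1.96 to 0.89 points in WT-NT, from -2.50 to 0.17 in WT-GS and from -1.03 to 1.34 in KO-GS. U4 with the last 2 Mb was -0.15, -0.17, -0.24 and -0.083 points (WT-NT, WT-GS, then KO-NT, KO-GS). The WT difference in U1 between GS and NT was 0.22 points over the last 10 Mb and ranged from -0.43 to 0.16 with 1 chromosome left out. The GS peak ratio was 0.87 with the last 2 Mb and ranged from 0.56 to 0.67 with 1 chromosome left out. The NT peak ratio was 0.87 for the upper 50% of scores. With 75% as the threshold, marked windows numbered 79, 77, 46 and 72 in the same order. With 20 points, differing windows numbered 10 for WT-GS minus WT-NT, 23 for KO-GS minus KO-NT, 50 for KO-NT minus WT-NT and 17 for KO-GS minus WT-GS. The share of all autosomal windows past these thresholds was not computed, so these counts cannot be set against a background. The cause of these changes was not tested. Depth and replicate spread are unknown and limit every value.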
